A study of Mus musculus with 10 samples.

Results

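The data cover 10 genes of macrophage fusion and osteoclast formation in macrophages sorted from mouse mammary tumours. They were found by symbol among 46956 loci: Ocstamp, Dcstamp, Acp5, Atp6v0d2, Nfatc1, Tnfrsf11a, Oscar, Spp1, Itgb3 and Mitf, each at 1 locus. The group was chosen by the measured counts of Ocstamp, which were lower after treatment in these same samples, so the treatment differences of all 10 genes are given as a description and without p-values. The mice were BALB/cJ, and 4T1 cells, a mouse mammary carcinoma line, had been placed in the mammary fat pad of every animal. Vehicle mice received PBS, and treated mice received JHU083, a prodrug of the glutamine antagonist 6-diazo-5-oxo-L-norleucine, at 1 mg/kg from day 7 to day 13. On day 14, in both groups, live cells positive for CD45, CD11b and F4/80 and negative for the T cell, monocyte and granulocyte antigens CD8, Ly6C and Ly6G were isolated by flow cytometry, and 5 samples per group were sequenced. The labels give no sex or age and do not say that the 5 samples of a group came from separate mice, so the p-values below measure the spread between these samples.

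Osteoclasts are multinucleated cells of the macrophage lineage that dissolve bone, and inflamed tissue can form related giant cells by fusion of macrophages. RANK, encoded by Tnfrsf11a, receives the ligand that starts osteoclast formation, and receptors such as OSCAR add a calcium signal through ITAM adaptors. The calcium signal activates calcineurin and NFATc1, which acts with MITF and AP-1 factors on genes for cell fusion, attachment and acid secretion. DC-STAMP and OC-STAMP are related multipass membrane proteins required for fusion. Acp5 encodes tartrate-resistant acid phosphatase, Atp6v0d2 a subunit of the proton pump, Itgb3 the beta chain of the vitronectin receptor and Spp1 the secreted protein osteopontin.

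The osteoclast name of the group was checked against defining genes. Calcr, the calcitonin receptor of osteoclasts, had 0 fragments in 9 of the 10 samples and 0.153 CPM (fragment counts scaled to library size) in JHU083 replicate 4. Oscar had at most 2 fragments in any sample. Ctsk, the collagen-degrading cathepsin of osteoclasts, was present at 16.4 to 43.3 CPM with vehicle and 5.46 to 12.6 CPM with JHU083. The 10 genes are therefore called fusion and osteoclast genes here, and no osteoclast is named as their source. Macrophage genes were high in every sample, with a summed level of 4136 to 4549 CPM for 7 genes with vehicle and 5443 to 6059 CPM with JHU083.

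Libraries held 11147870 to 15740701 fragments, at which depth 3 fragments correspond to 0.191 to 0.269 CPM by unscaled library sizes. The CPM values of genes use library sizes scaled by the trimmed mean of M values, so the same 3 fragments differ slightly there. In vehicle replicate 2, 3 fragments were 0.246 CPM by the unscaled size and 0.229 CPM by the scaled size. Vehicle replicates 2, 4 and 5 and JHU083 replicates 1 and 3 had no fragments at the ribosomal RNA loci Gm42418 and Rn18s-rs5, which took 2.87% to 5.59% of fragments in the other 5 samples. Where the call of a named gene was lost or gained in either of these sample sets, both sets are given beside it.

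Promoter sequence is a property that the selection did not use. RefSeq windows ran from 250 bases before to 50 bases after a transcript start (GRCm38.p6). Those examined were of Acp5, Tnfrsf11a, Oscar, Spp1 and Mitf, 10 windows in all. No window of Ocstamp, Dcstamp, Atp6v0d2, Nfatc1 or Itgb3 was examined, so nothing is said of the motifs of these genes. Shown are the 4 windows with the extended NFAT motif TGGAAA, which reads TTTCCA on the other strand. Capitals mark this motif and the E-box CATGTG, which reads CACATG on the other strand and is the class of site to which MITF can bind.
Acp5 promoter window, chr9:22130549-22130848, minus strand: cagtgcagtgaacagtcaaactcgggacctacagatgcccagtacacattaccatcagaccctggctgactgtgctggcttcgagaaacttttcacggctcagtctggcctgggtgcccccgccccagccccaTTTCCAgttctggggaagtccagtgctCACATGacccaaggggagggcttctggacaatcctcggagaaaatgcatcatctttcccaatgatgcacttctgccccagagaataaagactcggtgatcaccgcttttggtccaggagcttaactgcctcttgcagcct
Spp1 promoter window, chr5:104435942-104436241, plus strand: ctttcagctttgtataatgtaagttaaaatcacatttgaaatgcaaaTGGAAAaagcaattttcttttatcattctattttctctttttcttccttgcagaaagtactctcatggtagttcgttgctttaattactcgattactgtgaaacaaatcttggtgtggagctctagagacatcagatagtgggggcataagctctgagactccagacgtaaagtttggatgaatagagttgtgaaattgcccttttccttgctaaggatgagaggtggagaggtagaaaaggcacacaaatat
Mitf promoter window, chr6:97929567-97929866, plus strand: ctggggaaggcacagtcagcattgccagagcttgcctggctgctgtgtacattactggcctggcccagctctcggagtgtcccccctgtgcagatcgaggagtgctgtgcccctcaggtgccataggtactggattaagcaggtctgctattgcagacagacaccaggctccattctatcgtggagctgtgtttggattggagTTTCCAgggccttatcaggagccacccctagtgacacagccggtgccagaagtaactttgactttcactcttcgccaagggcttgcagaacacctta
Oscar promoter window, chr7:3616108-3616407, minus strand: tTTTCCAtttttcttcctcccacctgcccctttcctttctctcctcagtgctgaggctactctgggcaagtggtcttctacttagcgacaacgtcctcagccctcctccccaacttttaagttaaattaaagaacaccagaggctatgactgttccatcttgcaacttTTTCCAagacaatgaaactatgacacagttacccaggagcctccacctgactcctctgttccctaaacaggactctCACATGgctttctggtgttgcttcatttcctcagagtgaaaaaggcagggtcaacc
Counted from the 5′ end of each window, TTTCCA lay at bases 134 to 139 for Acp5 and 204 to 209 for Mitf. It lay at bases 2 to 7 and 169 to 174 for Oscar, and TGGAAA lay at bases 48 to 53 for Spp1. CACATG was at bases 161 to 166 for Acp5 and 245 to 250 for Oscar. TGGAAA was present on either strand in 21.4% and CATGTG in 14.2% of 32851 windows of the same length. The AP-1 motif TGANTCA and the E-box CACGTG, present in 7.81% and 7.15% of all windows, were in none of the 10 windows. The shorter NFAT core GGAAAN, which overlaps TGGAAA, occurred in 61.2% of all windows, and the PU.1 motif GAGGAA, which can overlap the core, in 28.3%. GAGGAA was in the Oscar window shown and in the other Spp1 window. The genes with the motif thus include Acp5, Spp1 and Mitf, whose transcripts were well above the detection floor, and Oscar, whose transcript was not. A match is a description of the letters and not a bound site.

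Of the 10 genes, Ocstamp was lower with JHU083, Atp6v0d2, Mitf, Spp1 and Acp5 were higher, and Dcstamp, Tnfrsf11a, Nfatc1 and Itgb3 did not pass the edgeR threshold. Oscar was too low to be fitted. The threshold was an adjusted p of 0.05 over 12500 loci tested, and 36.7% of them passed it, 18.4% as higher and 18.3% as lower. The median log2 fold change was 0.28 over the 9 fitted genes and 0.01 over all loci tested. Atp6v0d2, Mitf and Spp1 were higher in every JHU083 sample than in every vehicle sample, a pattern shown by 11.2% of loci, and Ocstamp was lower in every one, as were 11.1% of loci. Because the selection used this contrast, nothing is read from these counts.

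**Figure D1:**
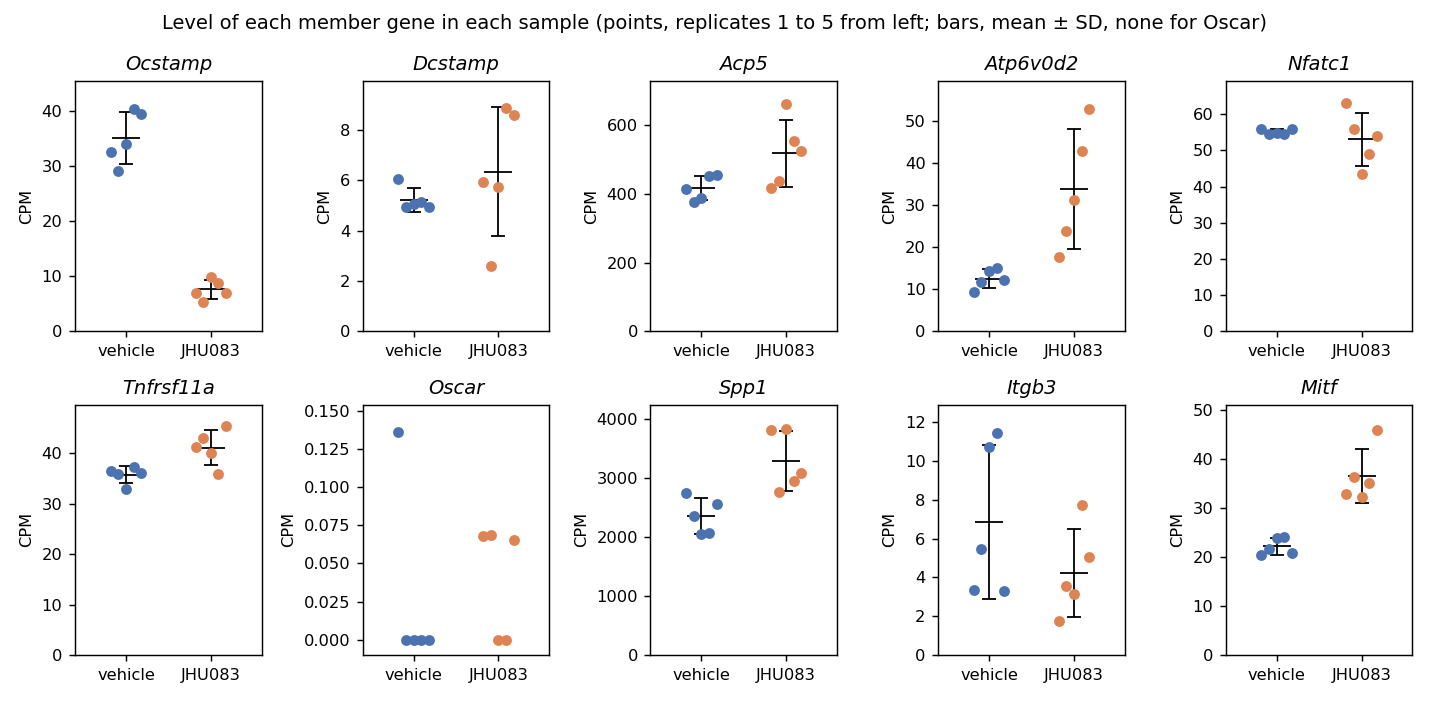
Level of each of the 10 genes in CPM (vertical axes, linear) in the vehicle and JHU083 samples, with 1 point per sample and bars for the mean and SD. The groups are apart for Ocstamp, Atp6v0d2, Spp1 and Mitf and overlap for the others, and no Oscar value exceeds 0.136 CPM.

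Among the receptors, Tnfrsf11a (chr1:105780718-105847981, GRCm38 positions from GENCODE M21 here and below) encodes RANK. Its level in vehicle replicates 1 to 5 was 36.5, 36.0, 33.0, 37.3 and 36.2 CPM. In JHU083 replicates 1 to 5 it was 41.3, 43.0, 40.1, 36.0 and 45.4 CPM. JHU083 replicate 4 lay within the vehicle range and the other 4 lay above it, for a log2 fold change of 0.20 ± 0.08 (SE) from 35.8 ± 1.65 to 41.2 ± 3.49 CPM (SD, n = 5). The difference was not past the threshold, but it was without JHU083 replicate 3 (0.21) or replicate 4 (0.25). Oscar (chr7:3609813-3616157), the collagen-binding receptor, had 2 fragments in vehicle replicate 1, 1 fragment each in JHU083 replicates 1, 2 and 5, and 0 in the other 6 samples. All of these values are at or under the detection floor, so no fold change is given.

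The ligand side was sparse in the sorted cells. Tnfsf11, which encodes RANK ligand, had 0.204, 0.229, 0.0754, 0.174 and 0.157 CPM with vehicle and 0.0682, 0.754, 1.04, 1.38 and 1.38 CPM with JHU083. Its fragments numbered 11 in the vehicle samples together and 65 in the JHU083 samples, too few to enter the test. Tnfrsf11b, the decoy receptor osteoprotegerin, stayed at or below 0.381 CPM in all 10 samples. Of the 12 genes listed for RANK ligand signalling, 10 were tested, 0 were higher (edgeR quasi-likelihood test with Benjamini-Hochberg adjustment, used for all adjusted p-values below) and 1 was lower. That gene was Nfkb2, a subunit precursor of non-canonical NF-kappaB, at 113 ± 3.59 CPM with vehicle and 93.8 ± 11.9 CPM with JHU083 (log2 fold change -0.26 ± 0.08, edgeR adjusted p = 0.0244). The Nfkb2 call was lost without vehicle replicate 2 (edgeR adjusted p = 0.0514), vehicle replicate 4 (0.0513), JHU083 replicate 2 (0.0608) or JHU083 replicate 5 (0.0702). In the samples with the ribosomal loci at 0 Nfkb2 was at -0.13 (edgeR adjusted p = 0.583), and in those with them above 0 at -0.37 (edgeR adjusted p = 0.0404). Beside the 0 higher genes, 2 were higher at an unadjusted edgeR p under 0.05, 3 by limma-voom with sample quality weights and 0 by DESeq2.

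ITAM signalling supplies the calcium signal that OSCAR shares with other receptors. Tyrobp and Fcer1g, the adaptors DAP12 and FcR gamma chain, did not pass the test: Tyrobp stood at 588 ± 54.3 and 646 ± 109 CPM (edgeR adjusted p = 0.332), and Fcer1g at 338 ± 31.0 and 311 ± 23.8 CPM (edgeR adjusted p = 0.255). With library sizes left unscaled Fcer1g was past the threshold as lower (-0.20, edgeR adjusted p = 0.0403). Trem2, a lipid-sensing partner of DAP12, rose from 358 ± 43.9 to 563 ± 98.2 CPM (log2 fold change 0.66 ± 0.11, edgeR adjusted p = 0.000582). Blnk, an adaptor downstream of Syk, rose from 37.5 ± 3.73 to 57.2 ± 5.64 CPM (0.61 ± 0.09, edgeR adjusted p = 0.000208). Trem3, another receptor of the family, fell from 7.42 ± 1.10 to 3.76 ± 1.11 CPM (-0.98 ± 0.20, edgeR adjusted p = 0.00164). Trem3 was at -0.63 in the samples with the ribosomal loci at 0 (edgeR adjusted p = 0.147) and at -1.28 in those with them above 0 (edgeR adjusted p = 0.00627). In all, 4 of 14 tested genes of the list rose and 1 fell, with a median log2 fold change of 0.09. These counts, and those of the lists below, stand beside 18.4% higher and 18.3% lower of all loci tested, and no list was tested against those shares.

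Nfatc1 encodes the transcription factor at the centre of osteoclast formation. Its level was 55.9, 54.6, 54.7, 54.7 and 55.8 CPM with vehicle and 63.1, 55.9, 43.5, 48.9 and 53.9 CPM with JHU083. The vehicle samples were nearly equal and the JHU083 samples spread to both sides of them, so the SD was 0.655 CPM in one group and 7.36 CPM in the other. The log2 fold change was -0.05 ± 0.09, not past the threshold, with values from -0.12 without JHU083 replicate 1 to 0.011 without JHU083 replicate 3. The related factors Nfatc2 and Nfatc3 had log2 fold changes of -0.02 ± 0.10 (edgeR adjusted p = 0.884) and -0.04 ± 0.13 (edgeR adjusted p = 0.835), and both changed sign in some alternative fits. Nfatc4 reached at most 0.981 CPM and was not tested.

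The calcineurin list held subunits of this phosphatase, its regulators and other NFAT factors. Of its 10 tested genes, 3 rose and 0 fell by edgeR (0 also at an unadjusted p under 0.05, by DESeq2 and by limma-voom). The median log2 fold change was 0.16. Rcan1, a calcineurin regulator that is itself a known NFAT target, rose from 93.7 ± 7.40 to 177 ± 44.3 CPM (0.92 ± 0.14, edgeR adjusted p = 0.000243). Ppp3ca, a catalytic subunit, rose from 105 ± 13.1 to 133 ± 16.5 CPM (0.34 ± 0.10, edgeR adjusted p = 0.0205). The other listed catalytic subunits, Ppp3cb (0.09, edgeR adjusted p = 0.33) and Ppp3cc (0.26, edgeR adjusted p = 0.258), did not pass. Ppp3r1, the regulatory subunit, whose locus also lists Wdr92, rose from 126 ± 2.90 to 147 ± 7.41 CPM (0.23 ± 0.06, edgeR adjusted p = 0.0114). The Ppp3ca call was lost without vehicle replicate 1 (edgeR adjusted p = 0.0553), vehicle replicate 5 (0.0528) or JHU083 replicate 4 (0.0572). Ppp3ca was at 0.20 in the samples with the ribosomal loci at 0 (edgeR adjusted p = 0.437) and 0.44 in those with them above 0 (edgeR adjusted p = 0.0469), and Ppp3r1 passed in neither set (0.19 and 0.22, edgeR adjusted p = 0.317 and 0.161). With library sizes left unscaled only Rcan1 of this list passed, and Ppp3r1 was also lost with no filter on low counts (edgeR adjusted p = 0.0706).

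Mitf (chr6:97807052-98021349) encodes the transcription factor that cooperates with NFATc1 on Acp5 and Oscar and that also drives lysosomal genes. It was at 20.4, 21.7, 23.9, 24.1 and 20.9 CPM with vehicle and 32.8, 36.4, 32.4, 35.0 and 46.0 CPM with JHU083. Every JHU083 sample was above every vehicle sample, and JHU083 replicate 5 was the highest. The mean was 22.2 ± 1.71 CPM with vehicle and 36.5 ± 5.57 CPM with JHU083, 1.65-fold higher (log2 fold change 0.72 ± 0.11). It was 0.55 ± 0.13 in the samples with the ribosomal loci at 0 and 0.81 ± 0.16 in those with them above 0. The macrophage genes Adgre1, Csf1r and Mertk were also higher with JHU083, while the other 4 of the 7 macrophage genes were not past the threshold. The part of this in the results of Mitf, Spp1, Atp6v0d2, Acp5 and the named pathway genes that rose was not tested.

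The other members of the MITF family did not pass the test. Tfe3 had a log2 fold change of 0.10 ± 0.08 (edgeR adjusted p = 0.331), Tfeb of -0.08 ± 0.12 (edgeR adjusted p = 0.618) and Tfec of 0.25 ± 0.10 (edgeR adjusted p = 0.071). Tfec passed without JHU083 replicate 1 (0.33 ± 0.08, edgeR adjusted p = 0.00802) and in the samples with the ribosomal loci above 0 (0.41, edgeR adjusted p = 0.0401), but not in those with them at 0 (0.04, edgeR adjusted p = 0.895). Whether Mitf differed from its relatives was not tested. Of 13 osteoclast transcription factors beyond the 10 genes, all were tested, 4 rose and 2 fell, with a median of 0.10. Fosl1, the AP-1 subunit Fra-1, fell from 15.5 ± 7.20 to 3.19 ± 1.44 CPM (-2.28 ± 0.34, edgeR adjusted p = 0.000208). Its vehicle replicates 1 to 5 had 12.2, 23.9, 22.2, 11.8 and 7.28 CPM, where the sum of the 8 tumour epithelial genes described below was 407, 642, 562, 451 and 293 CPM, and the part of this in the Fosl1 result was not tested. Myc fell from 50.4 ± 10.1 to 27.3 ± 3.83 CPM (-0.88 ± 0.14, edgeR adjusted p = 0.000256). Fos, whose product is required for osteoclast formation, rose from 423 ± 14.1 to 637 ± 84.6 CPM (0.59 ± 0.09, edgeR adjusted p = 0.000154).

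Among repressors of osteoclast formation, 5 of 14 tested genes rose and 4 fell, and 1 further listed gene, Irf8, was not analysed here. The Id proteins, which block helix-loop-helix factors, went both ways. Id2 rose from 113 ± 8.95 to 173 ± 35.9 CPM (0.62 ± 0.12, edgeR adjusted p = 0.00164). Id3 fell from 25.5 ± 8.14 to 12.2 ± 3.08 CPM (-1.06 ± 0.21, edgeR adjusted p = 0.00166), and Id1 from 4.38 ± 0.995 to 2.31 ± 0.596 CPM (-0.92 ± 0.23, edgeR adjusted p = 0.00611). Leaving out vehicle replicate 1, 4 or 5 or JHU083 replicate 1, 2 or 5 lowered the number that fell from 4 to 2. Id1 passed in neither the samples with the ribosomal loci at 0 (-1.05, edgeR adjusted p = 0.062) nor those with them above 0 (-0.73, edgeR adjusted p = 0.182), and Id3 passed in the latter (-1.26, edgeR adjusted p = 0.00244) but not the former (-0.87, edgeR adjusted p = 0.135).

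Ocstamp (chr2:165393760-165400405) had the largest difference of the 9 fitted genes. Its level in vehicle replicates 1 to 5 was 32.5, 29.0, 34.0, 40.2 and 39.4 CPM. In JHU083 replicates 1 to 5 it was 6.96, 5.21, 9.92, 8.72 and 7.01 CPM. The lowest vehicle sample was thus well above the highest JHU083 sample. Behind these values stood 380 to 503 fragments per vehicle sample and 76 to 133 per JHU083 sample. The mean went from 35.0 ± 4.75 to 7.56 ± 1.81 CPM, 4.64-fold lower with JHU083 (log2 fold change -2.21 ± 0.15). Over 23 alternative fits the value ranged from -2.33 to -2.10. In sorted bulk samples, fewer cells of a type and less RNA per cell cannot be told apart.

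Dcstamp (chr15:39745930-39760938), its relative, was at 6.04, 4.95, 5.05, 5.13 and 4.93 CPM with vehicle and 5.93, 2.60, 5.74, 8.87 and 8.58 CPM with JHU083. JHU083 samples lay below, within and above the narrow vehicle range, with replicate 2 lowest and replicates 4 and 5 highest. The mean was 5.22 ± 0.466 and 6.35 ± 2.54 CPM (log2 fold change 0.28 ± 0.25), not past the threshold except without JHU083 replicate 2 (0.48). The log2 fold change was 0.13 without JHU083 replicate 4 and 0.14 without JHU083 replicate 5. In FPKM, the deposited values normalised for transcript length, the level of Ocstamp was 3.49 ± 0.601 times that of Dcstamp in the vehicle samples, with a range of 2.78 to 4.12. In the JHU083 samples the ratio was 0.692 ± 0.260, with a range of 0.422 to 1.03. As Dcstamp did not pass the threshold, this ratio restates the Ocstamp values that chose the group.

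Of other surface proteins with a role in macrophage fusion, 7 of 14 tested rose and 1 fell by edgeR, with a median log2 fold change of 0.25. Tspan7, a tetraspanin of osteoclast podosomes, rose from 1.09 ± 0.496 to 3.85 ± 1.49 CPM (1.81 ± 0.33, edgeR adjusted p = 0.000881). Cd36, a scavenger receptor used in macrophage fusion, rose from 6.26 ± 0.834 to 18.8 ± 9.03 CPM (1.58 ± 0.28, edgeR adjusted p = 0.000635). Cdh1, E-cadherin, fell from 96.8 ± 9.97 to 43.6 ± 19.3 CPM (-1.15 ± 0.24, edgeR adjusted p = 0.00222). Cd44, a receptor of osteopontin, was at 271 ± 20.3 and 296 ± 30.8 CPM (edgeR adjusted p = 0.232). In the samples with the ribosomal loci at 0, 1 gene of this list was higher, Tspan7 no longer passed (1.05, edgeR adjusted p = 0.197, against 2.37, edgeR adjusted p = 0.0021, in those with them above 0), and leaving out single samples raised the number lower from 1 to 2 in 9 of 10 fits.

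Cdh1 is also a gene of the 4T1 tumour cells. The summed level of 8 mammary tumour epithelial genes was 293 to 642 CPM with vehicle and 102 to 216 CPM with JHU083, and 8 of 8 were lower (edgeR). Fibroblast and osteoblast genes summed to 108 to 235 CPM with vehicle and 29.4 to 124 CPM with JHU083, with 5 of 8 tested lower. In this list Bglap was at 0 in all 10 samples, and Sp7, Alpl and Ibsp had at most 2, 4 and 21 fragments in any sample. Runx2 was present at 4.46 to 10.3 CPM with vehicle and 3.58 to 8.84 CPM with JHU083. It did not pass (0.09, edgeR adjusted p = 0.813). Endothelial genes, mostly Pecam1, summed to 130 to 217 and 43.5 to 93.4 CPM. Of 4 tested endothelial genes 1, Pecam1, was lower, 1, Tie1, was higher (0.56, edgeR adjusted p = 0.00425), and Kdr and Cdh5 did not pass. Neutrophil genes summed to 26.6 to 35.5 CPM with vehicle and 8.11 to 21.1 CPM with JHU083, with 2 of 4 tested lower, S100a9 (-2.18, edgeR adjusted p = 0.000196) and S100a8 (-1.40, edgeR adjusted p = 0.000872), and the defining gene Ly6g at no more than 2 fragments in any sample. These sums moved in the same direction as Ocstamp and as the named pathway genes that fell, Ctsk, Mmp9, Cdh1, Fosl1, Myc, Id1, Id3, Trem3, Nfkb2, Gsn and Dock5, and their part in those results was not tested. The sort was for CD45, CD11b and F4/80, without Ly6G, and how far it removed other cells was not tested. No cell type is named here as the source of these genes.

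**Figure D2:**
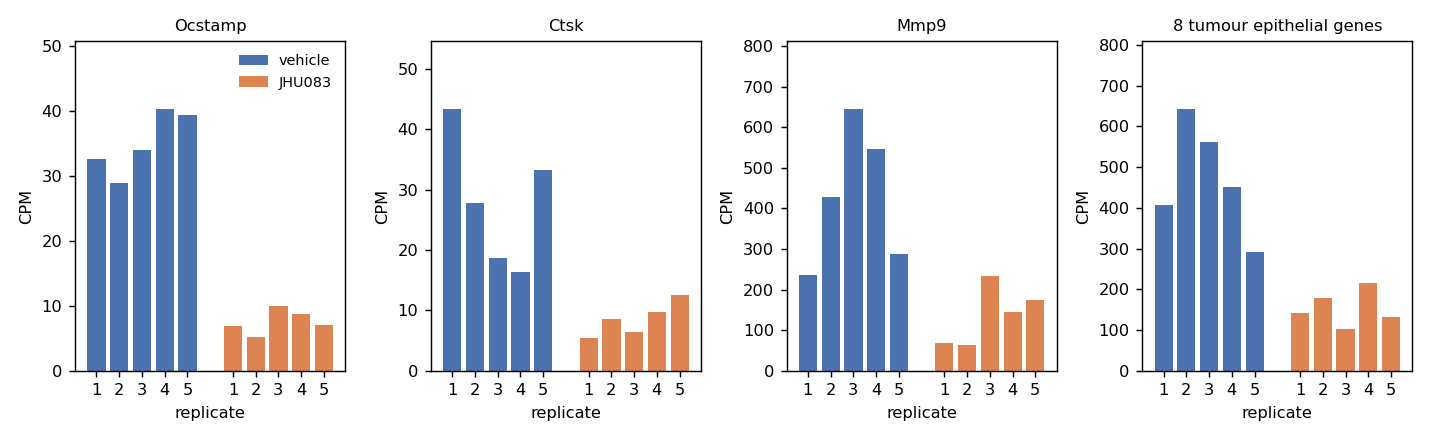
Level in CPM (vertical axes, linear from 0) of Ocstamp, Ctsk, Mmp9 and the sum of 8 tumour epithelial genes in each replicate of the vehicle and JHU083 groups, with 1 bar per sample. In each panel every vehicle sample lies above every JHU083 sample.

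Of the effector genes, Acp5 (chr9:22126727-22135711) encodes the phosphatase used as the classical osteoclast stain. It was at 414, 378, 389, 453 and 456 CPM with vehicle and 418, 438, 661, 554 and 526 CPM with JHU083. JHU083 replicates 1 and 2 lay within the vehicle range and the other 3 above it. The mean was 418 ± 35.8 CPM with vehicle and 519 ± 97.9 CPM with JHU083, 1.24-fold higher (log2 fold change 0.31 ± 0.11). The difference was past the threshold in 12 of 23 alternative fits and in 3 of the 10 that left out 1 sample, namely without vehicle replicate 5 or JHU083 replicates 1 or 2. It was 0.21 ± 0.09 without JHU083 replicate 3, the highest sample, and not past the threshold in the samples with the ribosomal loci at 0 (0.33 ± 0.18) or above 0 (0.32 ± 0.13).

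Atp6v0d2 (chr4:19876841-19922605) encodes the proton pump subunit that is abundant in osteoclasts and needed for their fusion. Its level was 9.37, 11.8, 14.3, 15.0 and 12.2 CPM with vehicle and 17.8, 23.9, 31.2, 43.0 and 53.0 CPM with JHU083. Every JHU083 sample was above every vehicle sample, and the JHU083 samples themselves differed widely. The mean was 12.6 ± 2.24 CPM with vehicle and 33.8 ± 14.3 CPM with JHU083, 2.70-fold higher (log2 fold change 1.43 ± 0.25). The 6 T and NK cell genes summed to 13.5 to 17.6 CPM with vehicle and 26.3 to 42.3 CPM with JHU083. Nearly all of this sum was Cd4, the only one of them tested, which was higher (1.12, edgeR adjusted p = 2.1e-05), while the other 5, Cd3e, Cd3d, Cd8a, Nkg7 and Ncr1, had at most 10 fragments in any sample. The part of this in the Atp6v0d2 and Mitf results was not tested. The value was 0.92 ± 0.24 in the samples with the ribosomal loci at 0 and 1.75 ± 0.30 in those with them above 0.

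Its relative Atp6v0d1, the subunit used by the pump in most cells, was at 222 ± 17.0 and 238 ± 29.9 CPM (0.10 ± 0.09, edgeR adjusted p = 0.412). In FPKM the level of Atp6v0d1 was 30.0 ± 6.37 times that of Atp6v0d2 with vehicle and 13.5 ± 5.93 times with JHU083, and the ranges, 24.5 to 39.4 and 7.10 to 21.9, did not overlap. As Atp6v0d1 did not pass the threshold, this ratio restates the Atp6v0d2 values. Of 16 other pump subunits and accessory proteins, all tested, 4 rose and 0 fell by edgeR (0 also at an unadjusted p under 0.05, by DESeq2 and by limma-voom), with a median of 0.10. Atp6v1a rose from 272 ± 26.0 to 393 ± 27.4 CPM (0.53 ± 0.08, edgeR adjusted p = 0.000184). Atp6ap2 rose from 228 ± 9.60 to 275 ± 18.4 CPM (0.27 ± 0.07, edgeR adjusted p = 0.00578) and Atp6v1b2 from 336 ± 13.7 to 389 ± 34.2 CPM (0.21 ± 0.07, edgeR adjusted p = 0.0336). The Atp6v1b2 call was lost without any 1 of vehicle replicates 1 to 4 or JHU083 replicates 4 and 5 (edgeR adjusted p between 0.0576 and 0.0851), with library sizes left unscaled (0.113) and with no filter on low counts (0.11), and 2 subunits passed in 5 of the 6 fits that left out 1 of these samples. Neither Atp6v1b2 nor Atp6ap2 passed in the samples with the ribosomal loci at 0 (0.24 and 0.23, edgeR adjusted p = 0.272 and 0.217) or above 0 (0.19 and 0.28, edgeR adjusted p = 0.272 and 0.116).

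Itgb3 (chr11:104608000-104670476) encodes integrin beta 3, which pairs with alpha v to bind osteopontin. It was at 3.33, 5.49, 10.7, 11.5 and 3.29 CPM with vehicle and 1.77, 3.56, 3.13, 7.72 and 5.04 CPM with JHU083. The groups overlapped, vehicle replicates 3 and 4 being highest, and the log2 fold change of -0.69 ± 0.41 was not past the threshold. It was -0.43 without vehicle replicate 4, -1.45 in the samples with the ribosomal loci at 0 and -0.37 in those with them above 0. Its partners Itgav (0.18 ± 0.12, edgeR adjusted p = 0.248) and Itga2b, the platelet partner (0.17 ± 0.40, edgeR adjusted p = 0.765), did not pass either, although Itgav did without JHU083 replicate 3 (0.26, edgeR adjusted p = 0.0442). Platelet genes, mostly Pf4, summed to 123 to 155 CPM with vehicle and 92.5 to 204 CPM with JHU083, and of 4 tested platelet genes Ppbp was higher (0.70, edgeR adjusted p = 0.0314), Gp1bb was lower (-0.96, edgeR adjusted p = 0.00466) and Pf4 and Itga2b did not pass.

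In the list for adhesion and podosomes, the actin-rich contacts of osteoclasts, 1 of 16 tested genes rose and 3 fell by edgeR. Gsn, the actin-severing protein gelsolin, fell from 522 ± 66.1 to 281 ± 36.2 CPM (-0.89 ± 0.10, edgeR adjusted p = 2.5e-05). Dock5, a Rac activator, fell from 16.5 ± 1.99 to 9.55 ± 1.85 CPM (-0.79 ± 0.14, edgeR adjusted p = 0.000746). Src, the kinase of the sealing zone, rose from 90.1 ± 5.77 to 113 ± 7.72 CPM (0.32 ± 0.07, edgeR adjusted p = 0.00388). The number that rose was 2 without vehicle replicate 3 and 4 without JHU083 replicate 3. Src passed in neither the samples with the ribosomal loci at 0 (0.32, edgeR adjusted p = 0.114) nor those with them above 0 (0.35, edgeR adjusted p = 0.0679).

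Spp1 (chr5:104435118-104441050) was the most abundant of the 10 genes, and its locus also lists the overlapping transcript Gm42793. Vehicle samples had 2753, 2352, 2056, 2075 and 2560 CPM, and JHU083 samples 3815, 2772, 3843, 2950 and 3083 CPM. The highest vehicle sample, replicate 1, and the lowest JHU083 sample, replicate 2, were close but did not overlap. The mean was 2359 ± 303 CPM with vehicle and 3292 ± 502 CPM with JHU083, 1.40-fold higher (log2 fold change 0.48 ± 0.13). It was 0.72 ± 0.13 in the samples with the ribosomal loci at 0 and 0.28 ± 0.15, not past the threshold, in those with them above 0.

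Bone resorption effectors did not change in 1 direction: of 10 tested, 3 rose and 2 fell by edgeR, with a median of 0.04. Ctsk was at 43.3, 27.8, 18.6, 16.4 and 33.3 CPM with vehicle and 5.46, 8.64, 6.41, 9.71 and 12.6 CPM with JHU083. It fell in all JHU083 samples relative to all vehicle samples, 3.26-fold in the mean (-1.71 ± 0.27, edgeR adjusted p = 0.00029). Mmp9, a gelatinase of osteoclasts and other myeloid cells, was at 236, 429, 644, 547 and 288 CPM with vehicle and 67.8, 63.5, 233, 145 and 173 CPM with JHU083 (-1.65 ± 0.35, edgeR adjusted p = 0.00237). The highest JHU083 sample for Mmp9 was just under the lowest vehicle sample, and the call was lost in the samples with the ribosomal loci at 0 (-1.48, edgeR adjusted p = 0.0731) and kept in those with them above 0 (-1.80, edgeR adjusted p = 0.00929). Gpnmb, the membrane glycoprotein osteoactivin and a known MITF target, rose from 2.96 ± 0.420 to 8.66 ± 2.05 CPM (1.55 ± 0.19, edgeR adjusted p = 3.8e-05).

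Over all 9 pathway lists, 126 of 127 genes had a locus and 117 were tested. Of these, 31 (26.5%) rose, 14 (11.97%) fell and 72 did not pass, beside 18.4% and 18.3% of all loci, and the median log2 fold change was 0.10. The groups did not overlap for 23 genes higher with JHU083 (19.7%, beside 11.2% of all loci) and 9 lower (7.69%, beside 11.1%).

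**Figure D3:**
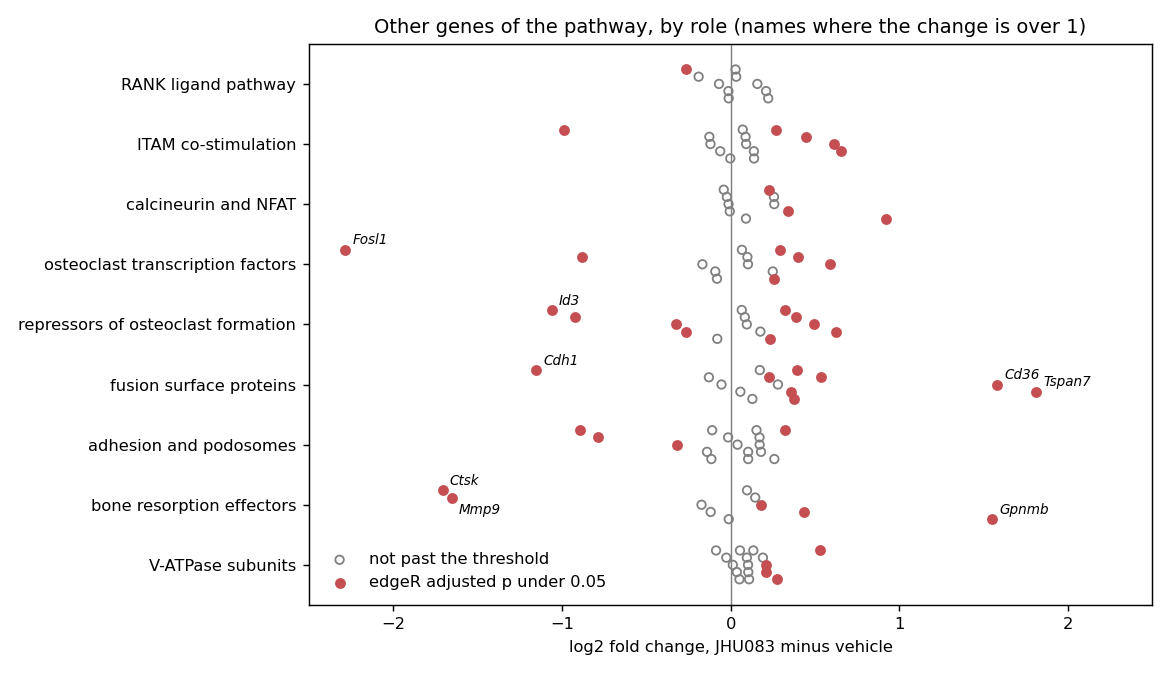
Log2 fold change of JHU083 against vehicle (horizontal axis) for the 117 tested genes of the 9 pathway lists (rows), 1 point per gene, filled where the edgeR adjusted p was under 0.05. Ctsk, Mmp9, Fosl1, Id3 and Cdh1 lie left of -1, and Cd36, Tspan7 and Gpnmb right of 1.

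The levels of the 10 genes among themselves were compared in FPKM, which allows for transcript length. In the vehicle samples the order was Spp1 at 1818 ± 229, Acp5 at 335 ± 27.7, Nfatc1 at 11.7 ± 0.151, Tnfrsf11a at 9.54 ± 0.627, Ocstamp at 9.33 ± 1.24, Atp6v0d2 at 4.95 ± 0.888, Mitf at 4.68 ± 0.821, Dcstamp at 2.69 ± 0.233, Itgb3 at 1.13 ± 0.654 and Oscar at 0.077 or less. The ranges of Tnfrsf11a and Ocstamp overlapped, as did those of Atp6v0d2 and Mitf, and the ranges of the other neighbours were apart. With JHU083, Atp6v0d2 came next after Acp5 at 13.4 ± 5.63 FPKM and Ocstamp, at 2.02 ± 0.472 FPKM, came below Dcstamp at 3.28 ± 1.31 FPKM. In that group the ranges of Atp6v0d2, Nfatc1, Tnfrsf11a and Mitf overlapped from one to the next, as did those of Dcstamp and Ocstamp. The ratio of counts to FPKM varied 1.28-fold over samples for Mitf and 1.24-fold for Tnfrsf11a, so the FPKM of these 2 genes also holds a length that differed between samples.

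**Figure D4:**
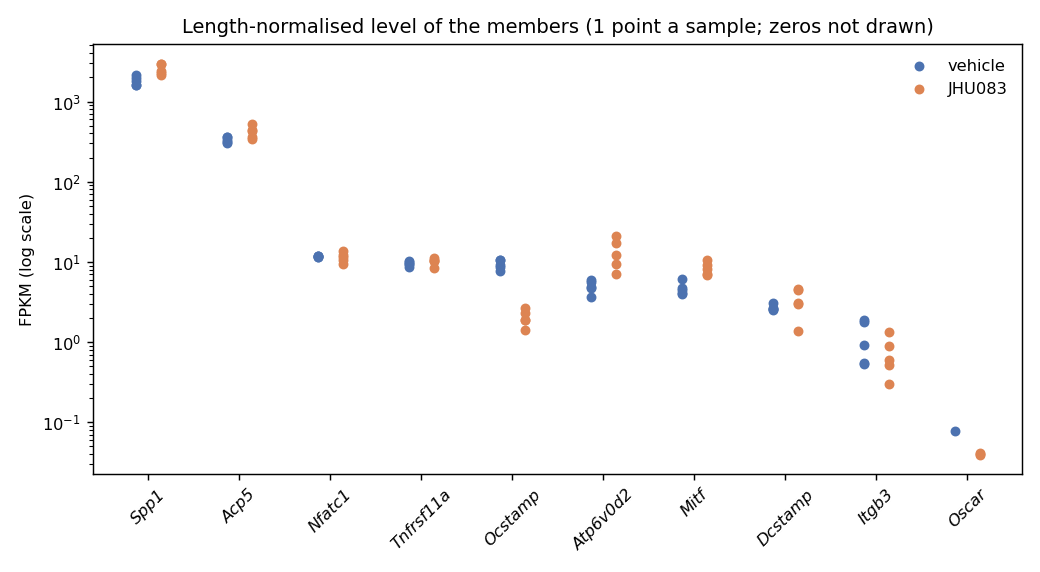
FPKM (vertical axis, log scale) of the 10 genes, ordered by their vehicle mean, with 1 point per sample and values of 0 not drawn. Spp1 and Acp5 lie above 300 FPKM in every sample, and the mean of Ocstamp is above that of Atp6v0d2 with vehicle and below it with JHU083.

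**Figure D5:**
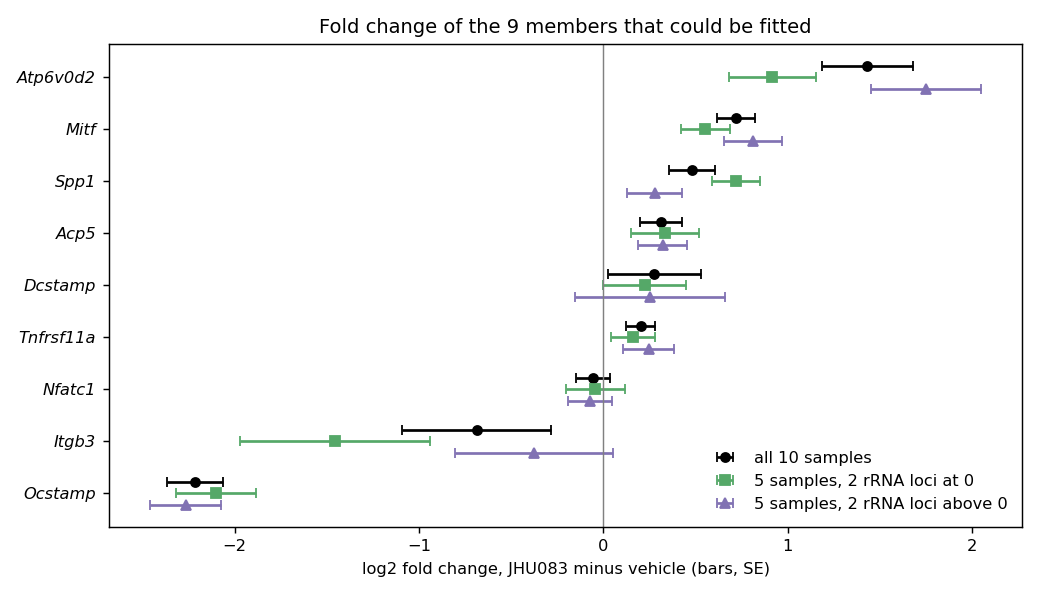
Log2 fold change of JHU083 against vehicle (horizontal axis, bars are SE) for the 9 fitted genes (rows) in all 10 samples, in the 5 samples with the 2 ribosomal RNA (rRNA) loci at 0 and in the 5 with them above 0. Ocstamp lies between -2.27 and -2.10 in all 3 fits, Atp6v0d2 is at 0.92 and 1.75 in the 2 sample sets and Itgb3 at -1.45 and -0.37.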

How the data were processed

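Poly(A) RNA libraries of 5 vehicle and 5 JHU083 samples, sequenced as Illumina read pairs, were analysed. Per the submitters' processing notes, bcl2fastq 2.17.1.14, FastQC 0.11.2, TopHat2 2.1.1 and the build GRCm38 were used. The program that counted and the annotation are not given in the sources used here. The authors deposited a column headed as raw counts and a normalised column for 46957 loci. The former holds expected counts, which the authors deposited not as whole numbers but, judging by the values, as fragment counts scaled per sample, in whole multiples of a step of 0.888 to 1.17. Dividing by the step gave a whole number, within 0.05, for at least 99.78% of values, and all values were rounded and taken as fragments. The other deposited column was taken as FPKM, from its ratio to the counts. A locus with no symbol, 0.0013% to 0.0021% of fragments, was left out. Loci that list several symbols number 1060, with 12.7% of fragments, and a value covers all their genes.

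Groups came from the labels' treatment. All loci passing filterByExpr were fitted once, without covariates, with TMM scaling and tested in edgeR 4.0.16 (R 4.3.3) by quasi-likelihood, adjusted by Benjamini-Hochberg, threshold 0.05. The SE is the absolute log2 fold change over the root of F. CPM use TMM-scaled sizes, and outliers were sought on log2 CPM with a prior count of 2. Depth limits the precision of low genes, and floors cover counting error only. Tables used Python 3.11.15, pandas 2.3.3 and matplotlib 3.10.9.

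The 10 genes, the 9 pathway lists and the 12 marker lists were chosen with earlier results of these data known. Named were the 10 genes, up to 3 genes per pathway list with the largest change past the threshold, and fixed relatives and defining genes. Other marker lists gave, in summed CPM for vehicle and JHU083, 23.8 to 26.2 and 16.8 to 34.5 (mast cell), 3.68 to 10.6 and 6.64 to 17.4 (eosinophil), 13.5 to 17.6 and 26.3 to 42.3 (T and NK cell, mostly Cd4), 2.58 to 3.77 and 3.47 to 5.14 (B cell), and 10.3 to 15.7 and 8.43 to 19.6 (dendritic cell). The 8 osteoclast markers, 5 of them among the 10 genes, summed to 744 to 1116 and 524 to 951 CPM. As alternatives, limma 3.58.1 (voom, quality weights) and DESeq2 1.42.0 were run, with other scaling and filters, a replicate block, rounded deposited values, sample and locus subsets, and leaving out each sample. A planned comparison of protein sequences was not run.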

Additional observations from a re-analysis of the deposited data

Results flagged for a closer look

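In 5 of 90 groups of 5 samples examined, 1 sample lay apart from the other 4 by more than 0.71 of the group's whole range, and chance alone gives about 1 in 20 groups. Dcstamp in vehicle replicate 1 stood at 2.63 log2 CPM and the remaining vehicle samples at 2.34 to 2.40. Trem2 in JHU083 replicate 3 was at 9.53 log2 CPM, against 8.99 to 9.04. Myc in the same sample was at 4.38 log2 CPM, against 4.82 to 4.93, and Tfeb in that sample was at 5.41 log2 CPM, against 5.05 to 5.11. Tfec in JHU083 replicate 1 was at 5.76 log2 CPM, against 6.19 to 6.34.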

How the results depend on the processing

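In 23 alternative fits (22 for Spp1), log2 fold changes ranged from -2.33 to -2.10 for Ocstamp, 0.92 to 1.75 for Atp6v0d2, 0.55 to 0.81 for Mitf and 0.28 to 0.72 for Spp1. Acp5 passed the threshold in 12, Spp1 in 21, Tnfrsf11a in 2 and Dcstamp in 1. As the 10 genes were chosen on this contrast, these values describe them and support nothing. Over all loci, 2296 were higher and 2293 lower. With unscaled library sizes the counts were 1564 and 3141, 33.2% higher, with a median shift of -0.08, and 19 pathway genes were higher (31 in the fit reported). In the samples with both ribosomal loci at 0, 532 loci were higher and 586 lower, with 8 pathway genes higher and 6 lower (14 in the fit reported). In those above 0, 1276 loci, 2 of the 10 genes and 17 pathway genes were higher. Both sets hold fewer samples. Leaving out 1 sample gave 1821 to 2899 loci higher and 1900 to 2930 lower, 3 to 5 of the 10 genes higher and 1 lower, and 26 to 37 pathway genes higher and 11 to 17 lower. Log2 fold changes near 0 changed sign: Nfatc1 to 0.011 without JHU083 replicate 3, Nfatc2 to 0.016 and Nfatc3 to 0.025 by limma-voom, Tfeb to 0.011 at 0, Tyrobp to -0.017 above 0, and, leaving out 1 sample, Nfatc2 from -0.069 to 0.032 and Nfatc3 from -0.091 to 0.070; the cause was not tested. For named pathway genes, 38 values lost the threshold, 4 gained it and 777 did neither.

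No label says that samples of the same replicate number were paired. Deviations of same-numbered samples from their group means correlated at -0.20, 0.09, -0.57, -0.12 and -0.16. These values cannot show whether the samples were paired, since pairing need not leave a correlation over all loci. A replicate block gave 1612 loci higher and 1757 lower, 3 of the 10 genes higher and 1 lower, and 21 pathway genes higher and 10 lower. Acp5 was at 0.30 in that fit, not past the threshold, and Ocstamp at -2.23. The block also ended the calls of Nfkb2 (edgeR adjusted p = 0.0535), Ppp3ca (0.0621), Ppp3r1 (0.0621) and Atp6v1b2 (0.08), and of no other named pathway gene. DESeq2 gave 2399 and 2484 loci. Below 3 fragments, which are 0.191 to 0.269 CPM by unscaled library sizes, these depths show no difference, which concerns Oscar and Calcr.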

Other observations

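Within the groups, after the group mean was taken off each log2 CPM value, 5 of 9386 loci were most like Ocstamp over the 10 samples. They were Eif2s2 (Pearson r 0.99), Alg5 (0.97), Pqlc1 (0.96), Arih2 (0.96) and S100a1 (0.94), a description of samples that share 1 library protocol, per the labels. The log2 fold changes of these genes were -0.03, 0.16, 0.33, 0.20 and 0.42, far from that of Ocstamp. Among the 10 genes on the same scale, r was positive for Ocstamp with Acp5 (0.85) and for Atp6v0d2 with Itgb3 (0.77) and Mitf (0.72). It was negative for Acp5 with Nfatc1 (-0.85), Spp1 with Itgb3 (-0.82), Spp1 with Mitf (-0.65) and Ocstamp with Nfatc1 (-0.63). With the summed marker genes of the 11 lists other than osteoclast, r for Ocstamp was 0.72 (neutrophil), 0.70 (platelet and megakaryocyte), 0.38 (B cell), 0.32 (endothelium), 0.25 (dendritic cell), 0.19 (mast cell), 0.14 (T and NK cell), -0.10 (eosinophil), -0.23 (macrophage), -0.47 (mammary tumour epithelium) and -0.84 (fibroblast and osteoblast lineage). For the other genes the values furthest from 0 were those of Atp6v0d2 with endothelium (0.93) and with T and NK cell (0.92), Acp5 with fibroblast and osteoblast lineage (-0.93), neutrophil (0.88) and platelet and megakaryocyte (0.84), Nfatc1 with neutrophil (-0.87), Itgb3 with endothelium (0.87) and Mitf with T and NK cell (0.81). The endothelial sum was mostly Pecam1, the T and NK cell sum mostly Cd4 and the platelet sum mostly Pf4. The meaning of these values was not tested.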
